A study of Homo sapiens with 6 samples.

Results

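The solute carriers examined here were the genes of NB4 cells whose symbols have the form SLC, a family number, the letter A and a member number. Members were chosen by symbol and by level: the mean normalized count over all 6 libraries had to be at least 50, and SLC7A5, SLC7A11, SLC11A2, SLC40A1 and SLC30A1 were left out by name. This gave 167 members, from 41 families, among 223 genes with such symbols and 18625 genes in the table. Another 51 had a mean under 50, of which 31 were abundant enough to be tested and 20 were not. NB4 is an acute promyelocytic leukemia cell line. One group of 3 libraries came from NB4 cells given the solvent DMSO for 3 days, and the other group of 3 from NB4 cells given Tan I (tanshinone I, a compound of the Salvia root) at 10 μM for 3 days. Both groups are the same line, so the comparison covers 1 genetic background, and whether replicates came from separate cultures is not stated. The p-values therefore measure the spread between these libraries only, which may be technical.

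Solute carriers are membrane proteins that move amino acids, sugars, nucleosides, metabolites, vitamins, metals and ions across the plasma membrane or the membranes of organelles. They work as facilitators, as cotransporters driven by an ion gradient, or as exchangers. Families are numbered by sequence likeness, so that a family usually shares a class of substrate. Most SLC25 members sit in the inner mitochondrial membrane. SLC39 and SLC30 members carry zinc into and out of the cytosol, and SLC7 light chains reach the cell surface with the heavy chain SLC3A2. Proliferating leukemia cells depend on amino acid and glucose uptake through such carriers.

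The libraries held 21502760 to 31679138 reads on listed genes. Some of them stood apart. The first axis of a principal component analysis (PC1) over the tested genes took 70.8% of the variance and did not follow treatment, with scores of -47.97, 41.11 and -26.66 in DMSO and -46.75, 8.65 and 71.61 in Tan I. Of the 7 promyelocyte marker genes, 6 were listed, all above 0, and ELANE was not listed. Their summed normalized count was 71171 to 77317 in DMSO and 42027 to 50381 in Tan I, mostly from myeloperoxidase (MPO), so this total moved with the treatment, and its part in the results below was not tested. Among the 6, CD33 went the other way, with means of 3712 in DMSO and 3903 in Tan I. The means of MPO, AZU1, PRTN3, CTSG and CEBPE were lower in Tan I. Fewer cells of a type and less RNA per cell cannot be told apart in bulk samples. Of the markers of other lineages, 3 of 4 T cell genes were listed, at a summed 320 to 479 in DMSO and 354 to 620.1 in Tan I, and 2 of 4 B cell genes, at 170.5 to 179 and 159 to 172. Of 6 epithelial and fibroblast genes 2 were listed, at 246 to 296 and 243 to 333, and of 5 monocyte and macrophage genes 2, at 21.9 to 31.8 and 29.5 to 44.96. Of 5 erythroid genes 1 was listed, SLC4A1, at 4.66 to 10.9 and 1.05 to 10.7. None of the globin genes, PAX5, MS4A1 or CD3G was listed.

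No solute carrier passed the test after adjustment over all genes, and 12 passed the unadjusted threshold. Values were compared by limma on log2(normalized count + 1), a scale that understates changes of low genes. A member was called when its unadjusted p was at most 0.05 and its absolute log2 fold change at least 0.25, the threshold the study used. Of the 167 members 12 were called (7.19%), 4 higher and 8 lower in Tan I, against 2.42% of the 16887 genes tested, 1.32% higher and 1.1% lower. Among all tested genes with a mean of at least 50 it was 2.58%. After Benjamini-Hochberg adjustment over all genes tested, limma left 0 members and 0 genes at 0.05. The smallest adjusted p of a member was 0.999, while 12 members and 410 genes had an unadjusted p of at most 0.05. edgeR and DESeq2 on the recovered reads gave 0 members after adjustment as well. Every call below therefore rests on unadjusted p-values, unless a covariate is named.

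The 4 members called higher were SLC33A1, SLC38A10, SLC20A1 and SLC2A3, with log2 fold changes of 0.32 to 0.53. The 8 called lower included SLC7A8, SLC38A7, SLC1A3, SLC29A4, SLC27A4, SLC7A2 and SLC2A5, from -0.92 to -0.33. SLC38A7 and SLC7A8 had a Tan I mean under 50 and became members only through their DMSO level, so a lower Tan I value was in part set by how members were chosen. For all 12 the 3 Tan I libraries lay on one side of the 3 DMSO libraries. Such separation was seen for 23 members (13.8%), 10 with Tan I above and 13 with Tan I below, against 7.89% of all genes tested, 3.92% above and 3.97% below, and 7.93% of those with a mean of at least 50. In an exact two-sided permutation test over the 6 libraries each of the 12 had p = 0.1, the smallest this design allows. Every gene with separated groups has this p, so the test adds nothing to the separation.

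**Figure D1:**
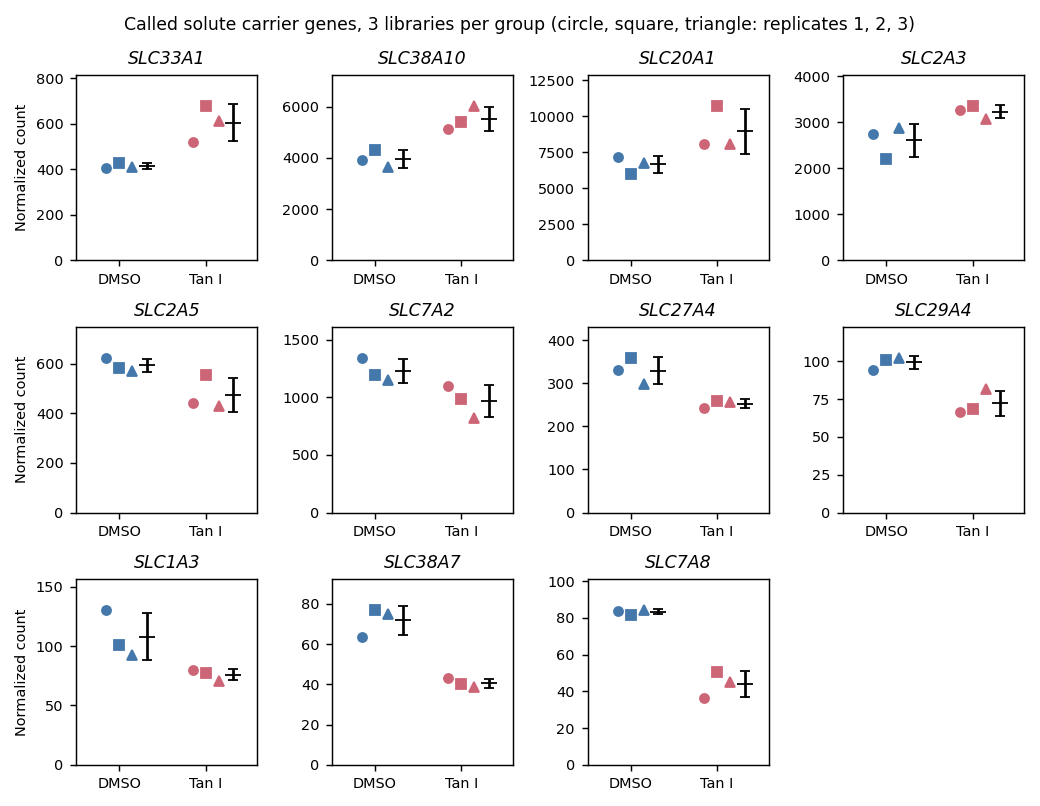
Normalized counts (linear axes from 0) of 11 of the 12 called solute carriers in each library of DMSO (blue) and Tan I (red), with circles, squares and triangles for replicates 1, 2 and 3, and the mean with its SD (n = 3) in black. SLC33A1, SLC38A10, SLC20A1 and SLC2A3 are higher in Tan I and the other 7 are lower, with no overlap between the groups in any panel.

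Promoter sequences are shown for 5 of these genes: SLC33A1 and SLC38A10 had the largest positive log2 fold changes of the called members, SLC38A7 and SLC7A8 the largest negative ones of those named, and SLC20A1 was the most abundant called member. They come from RefSeq on GRCh38.p14, run 5′ to 3′ on the gene's strand, and cover 300 bases each, around and mostly before a transcript start. The SLC38A10 window lies mostly inside the gene position given below, so it does not cover the sequence before that gene's outermost start. Of the members 134 were matched by symbol, and 9 of the 12 called ones. Capitals mark matches on either strand to the core of the antioxidant response element (TGACNNNGC), the core of the xenobiotic response element (GCGTG) and the E-box (CACGTG), and matches that overlap run together. The windows are chr2:112645689-112645988 (+) for SLC20A1, chr3:155854378-155854677 (-) for SLC33A1, chr17:81295258-81295557 (-) for SLC38A10, chr16:58684721-58685020 (-) for SLC38A7 and chr14:23183611-23183910 (-) for SLC7A8.
SLC20A1: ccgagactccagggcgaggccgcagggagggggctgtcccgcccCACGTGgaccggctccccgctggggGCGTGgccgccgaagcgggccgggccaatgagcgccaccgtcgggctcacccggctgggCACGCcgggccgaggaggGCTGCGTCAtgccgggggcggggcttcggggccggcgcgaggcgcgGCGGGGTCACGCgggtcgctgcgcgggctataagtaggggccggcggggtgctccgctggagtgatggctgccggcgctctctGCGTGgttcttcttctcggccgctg
SLC33A1: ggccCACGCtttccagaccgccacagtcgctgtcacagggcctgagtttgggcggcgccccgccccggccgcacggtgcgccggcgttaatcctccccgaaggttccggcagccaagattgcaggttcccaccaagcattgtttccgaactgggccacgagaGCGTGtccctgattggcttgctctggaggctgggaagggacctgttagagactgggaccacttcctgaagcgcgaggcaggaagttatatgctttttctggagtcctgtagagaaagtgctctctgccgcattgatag
SLC38A10: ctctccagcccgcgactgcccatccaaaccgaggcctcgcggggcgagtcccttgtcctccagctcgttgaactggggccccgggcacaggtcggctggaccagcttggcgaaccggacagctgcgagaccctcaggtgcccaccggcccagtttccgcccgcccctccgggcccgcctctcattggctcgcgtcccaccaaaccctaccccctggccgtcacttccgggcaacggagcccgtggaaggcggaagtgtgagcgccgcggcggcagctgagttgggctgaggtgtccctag
SLC38A7: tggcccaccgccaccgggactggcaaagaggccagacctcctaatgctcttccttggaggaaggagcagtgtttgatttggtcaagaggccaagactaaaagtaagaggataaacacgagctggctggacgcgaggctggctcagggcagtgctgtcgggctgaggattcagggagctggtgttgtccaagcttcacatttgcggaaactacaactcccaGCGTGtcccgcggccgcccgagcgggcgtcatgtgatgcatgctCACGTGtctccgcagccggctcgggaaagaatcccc
SLC7A8: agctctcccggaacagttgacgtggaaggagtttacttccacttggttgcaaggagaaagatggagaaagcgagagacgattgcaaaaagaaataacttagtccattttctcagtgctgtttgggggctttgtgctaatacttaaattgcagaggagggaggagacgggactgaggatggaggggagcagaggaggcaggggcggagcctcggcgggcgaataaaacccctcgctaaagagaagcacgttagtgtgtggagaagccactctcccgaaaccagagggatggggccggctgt
The SLC20A1 window held 2 antioxidant core matches, 4 xenobiotic core matches and 1 E-box. The SLC33A1 window held 2 xenobiotic core matches, and the SLC38A7 window 1 xenobiotic core match and 1 E-box. No match lay in the SLC38A10 window or in the printed one of 4 SLC7A8 windows. Over all 35116 promoter windows 13.3% held the antioxidant core, 36.5% the xenobiotic core and 7.26% the E-box. Over the 203 windows of members the shares were 15.3%, 59.6% and 15.3%. Counted by gene, 31, 93 and 30 of the 134 members with a window held a match in any of theirs, and 3, 8 and 3 of the 9 called ones. Genes with several windows had more chances, and the matches of SLC7A8 lie in windows not printed. The same count over all genes is not given here, so these counts cannot be set against the shares per window. All are matches of letters in a window and not binding sites.

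Amino acid carriers (families 1, 3, 6, 7, 36, 38 and 43) held 5 of the 12 calls. That was 20.8% of their members, against 7.19% of all members, 2.42% of all genes tested and 2.58% of those with a mean of at least 50. Such a share was not particular to them. It was 25% in the phosphate group, 20% in the lipid group, 20% in the nucleoside group and 13.3% in the sugar group. Each of these held 1 or 2 calls. It was 0% in the mitochondrial carriers, the exchangers and the metal carriers. Of the 5 amino acid carriers called, SLC7A8 and SLC38A7 became members only through their DMSO level. SLC1A3 and SLC7A2 were each called in only 1 of the 6 fits that left out a library. Of 24 members 11 had a log2 fold change above 0 and 13 below, 1 was called higher and 4 lower, and the median log2 fold change was -0.06. SLC38A10, a member of the sodium-coupled neutral amino acid transporter family, had 3917, 4318 and 3626 normalized counts in DMSO and 5106, 5408 and 6039.8 in Tan I. Every Tan I library was higher than every DMSO library, and the means were 3954 ± 347 and 5518 ± 477 (SD, n = 3 each). The log2 fold change was 0.48 (SE 0.12, 95% confidence interval 0.19 to 0.77, limma unadjusted p = 0.00521). SLC38A10 (ENSG00000157637) lies at chr17:81244811-81295547 on the minus strand of GRCh38, and an exon of ENSG00000276101 overlaps it on the other strand.

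SLC7A8 encodes LAT2, a light chain that exchanges neutral amino acids in a pair with SLC3A2. It had 83.9, 81.9 and 84.4 normalized counts in DMSO, and 36.2, 50.6 and 45.3 in Tan I, from 85 to 108 and from 34 to 48 reads. The DMSO libraries were nearly level and all 3 Tan I libraries lay far under them. Its log2 fold change was -0.92 (SE 0.22, 95% confidence interval -1.43 to -0.41, limma unadjusted p = 0.00346). SLC38A7, a lysosomal glutamine and asparagine transporter, had 63.4, 77.1 and 75.0 in DMSO and 43.01, 40.05 and 38.7 in Tan I. Here too the groups were apart, at a log2 fold change of -0.80 (SE 0.21, 95% confidence interval -1.30 to -0.31, limma unadjusted p = 0.006). Both genes passed the mean of 50 only through their DMSO level. Their separation and p-values were therefore favoured by how members were chosen and are no independent support for a fall. SLC7A8 (ENSG00000092068) lies at chr14:23125295-23183674 and SLC38A7 (ENSG00000103042) at chr16:58665109-58684770, each on the minus strand.

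SLC1A3, the glutamate and aspartate transporter EAAT1, had 131, 101 and 92.2 normalized counts in DMSO and 80.1, 76.9 and 70.7 in Tan I. The groups did not overlap but the nearest libraries were close, and the log2 fold change of -0.49 (SE 0.20, limma unadjusted p = 0.0468) was called only without DMSO replicate 3 among the 6 fits that left out a library, with values from -0.59 to -0.34. It was not called by edgeR (unadjusted p = 0.0517) or DESeq2 (unadjusted p = 0.0531) either. Exons of SLC1A3-AS1 overlap it on the other strand. SLC7A2, the cationic amino acid transporter CAT2, had 1343, 1195 and 1145 in DMSO and 1099, 983 and 817 in Tan I, a log2 fold change of -0.35 (SE 0.14, limma unadjusted p = 0.0424) that was called only without Tan I replicate 1 (-0.45 to -0.24 over the 6 fits). The lowest DMSO library exceeded the highest Tan I library by little.

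Other amino acid carriers were not called. SLC43A2, the neutral amino acid facilitator LAT4, had 169, 265 and 234 normalized counts in DMSO and 289, 281 and 339 in Tan I. Its groups were apart, but the log2 fold change of 0.46 (SE 0.20) had a limma unadjusted p of 0.0507. SLC43A2 was called by DESeq2 (unadjusted p = 0.0466) and not by edgeR (unadjusted p = 0.0562). It was called in 6 of 17 alternatives, as many as the called SLC1A3. SLC3A2, the heavy chain of SLC7A8, was at 8635 ± 965 in DMSO and 9488 ± 1843 in Tan I, with a 95% confidence interval of the log2 fold change from -0.28 to 0.53. The glutamine carriers SLC1A5 (ASCT2) and SLC38A2 (SNAT2) had intervals from -0.58 to 0.75 and from -0.36 to 0.38, and the arginine and lysine carrier SLC7A1 (CAT1) one from -0.59 to 0.11. SLC1A1, the glutamate transporter EAAT3 and the least abundant member, was at 52.2 ± 4.24 in DMSO and 53.3 ± 10.6 in Tan I. Of the genes left out by name, SLC7A5 (LAT1) had a log2 fold change of -0.09 (SE 0.13) and SLC7A11, the cystine carrier, 0.12 (SE 0.16).

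Among 10 carriers of lipids, choline and acetyl-CoA, 1 was called higher and 1 lower (20%, against 2.42% of all genes tested). Their median log2 fold change was -0.02. SLC33A1, which brings acetyl-CoA into the endoplasmic reticulum, had 407, 429.6 and 411 normalized counts in DMSO and 520.0, 681 and 615 in Tan I. The DMSO libraries differed by little and all 3 Tan I libraries were higher, with means of 416 ± 12.2 and 605 ± 80.8 (SD, n = 3 each). The log2 fold change was 0.53 (SE 0.14, 95% confidence interval 0.21 to 0.86, limma unadjusted p = 0.00581), the largest positive value of any member. SLC33A1 (ENSG00000169359) lies at chr3:155821024-155854456 on the minus strand. SLC27A4, the fatty acid transport protein FATP4, had 331, 359 and 298 in DMSO and 241, 259 and 257 in Tan I. The groups were apart, and its log2 fold change was -0.38 (SE 0.14, limma unadjusted p = 0.0276), which stayed called without DMSO replicate 3 or Tan I replicate 3 and not without any other library (-0.45 to -0.31). SLC27A2 (FATP2) was not called, at 0.20 (SE 0.22).

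SLC20A1 (PiT1), a sodium-phosphate cotransporter, was the most abundant called member. It had 7176, 6013 and 6789 normalized counts in DMSO and 8069.6, 10749 and 8071 in Tan I. Tan I replicate 2 was far above the other Tan I libraries, which were themselves above DMSO. The log2 fold change was 0.42 (SE 0.15, 95% confidence interval 0.06 to 0.78, limma unadjusted p = 0.0281). Without Tan I replicate 2 it was no longer called, and likewise without DMSO replicate 2 or 3, with log2 fold changes of 0.28 to 0.49 over the 6 fits. SLC20A1 (ENSG00000144136) lies at chr2:112645939-112663825 on the plus strand. The other 3 members of the phosphate group were not called, among them SLC17A9, the vesicular nucleotide transporter, at -0.10 (SE 0.13).

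Of 15 sugar carriers 1 was called higher and 1 lower (13.3%, against 2.42% of all genes tested), with a median log2 fold change of -0.04. SLC2A3, the glucose transporter GLUT3, had 2743, 2191 and 2879 normalized counts in DMSO and 3259, 3364 and 3074 in Tan I. The groups were narrowly apart, and the log2 fold change was 0.32 (SE 0.13, limma unadjusted p = 0.0461). SLC2A14 is a near-identical copy of SLC2A3, and reads mapping to several places were removed, so this level is uncertain. SLC2A5, the fructose transporter GLUT5, had 624, 584 and 572 in DMSO and 439.8, 552 and 428 in Tan I, with Tan I replicate 2 close to the DMSO libraries. Its log2 fold change was -0.33 (SE 0.14, limma unadjusted p = 0.0484). Of the 6 fits that left out a library, SLC2A3 was called only without DMSO replicate 3 (0.20 to 0.40) and SLC2A5 only without Tan I replicate 2 (-0.45 to -0.27). SLC37A4, the glucose-6-phosphate carrier of the endoplasmic reticulum, had a log2 fold change of -0.17 (SE 0.11).

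The monocarboxylate family SLC16 had 7 members and a median log2 fold change of -0.11. SLC16A1 (MCT1), the lactate and pyruvate carrier, was at 1679 ± 262 in DMSO and 1679.5 ± 185 in Tan I, with an interval from -0.34 to 0.36. SLC16A4 varied most between libraries, with 352, 46.2 and 222 in DMSO and 335, 74.8 and 32.01 in Tan I, so that its log2 fold change of -0.71 had an SE of 0.98.

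All 5 members of the nucleoside carrier families SLC28 and SLC29 had log2 fold changes below 0, with a median of -0.18. The 1 called, SLC29A4, mainly carries other substrates. SLC29A4 (PMAT), a monoamine and cation transporter of the equilibrative nucleoside family, had 94.2, 101 and 102 normalized counts in DMSO and 66.5, 68.5 and 81.3 in Tan I. The groups were apart, at a log2 fold change of -0.46 (SE 0.19, limma unadjusted p = 0.0414), called only without Tan I replicate 3 when libraries were left out (-0.55 to -0.40). An exon of TNRC18 overlaps it on the other strand. SLC29A1 (ENT1), the main nucleoside carrier by level, was at 2125 ± 307 and 2052 ± 164, with an interval from -0.37 to 0.28.

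**Figure D2:**
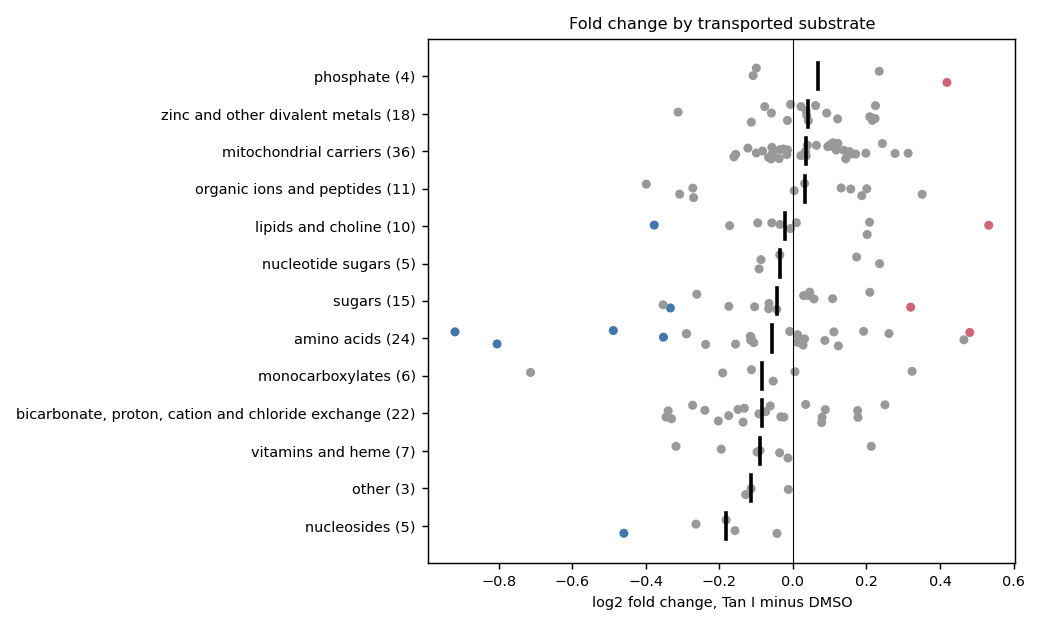
Log2 fold change (Tan I minus DMSO) of 166 of the 167 members, grouped by transported substrate with the number shown in parentheses; red points were called higher, blue lower and grey not called, black bars are medians of the points shown, and height within a row has no meaning. The amino acid row holds 5 of the 12 calls, 20.8% of its members against 7.19% of all members and 2.42% of all genes tested. The share is 20% in the lipid row and 0% in the mitochondrial row. Of the amino acid calls, SLC7A8 and SLC38A7 became members only through their DMSO level. In the mitochondrial carrier family 34 of the 36 members lie within 0.25 of 0.

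The remaining groups held no call. The mitochondrial carrier family SLC25 was the largest, with 36 members, 21 above 0 and 15 below, a median log2 fold change of 0.04 and a range from -0.16 to 0.31. The 22 exchangers of bicarbonate, protons, cations and chloride had a median of -0.08, with 7 above 0 and 15 below, and among them SLC26A6, an anion exchanger, was at 0.25 (SE 0.15), SLC4A7, a sodium bicarbonate cotransporter, at -0.09 (SE 0.26), SLC9A3 (NHE3) at -0.07 (SE 0.25) and SLC12A4 (KCC1) at 0.09 (SE 0.19). The 18 carriers of zinc and other divalent metals had a median of 0.04. SLC39A7 (ZIP7), which releases zinc from the endoplasmic reticulum, was at 0.22 (SE 0.16) and SLC30A9 at -0.08 (SE 0.12). Of the metal carriers left out by name, SLC11A2 was at -0.11 (SE 0.13), SLC40A1 (ferroportin) at -0.29 (SE 0.27) and SLC30A1 at 0.02 (SE 0.27), none of them called.

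The 11 carriers of organic ions and peptides had a median log2 fold change of 0.03, with the lysosomal peptide and histidine carrier SLC15A3 at 0.35 (SE 0.31) and SLC22A15 at -0.31 (SE 0.15). SLC22A15 had 1678, 1593 and 1605 normalized counts in DMSO and 1542, 1342 and 1092 in Tan I, apart but not called (limma unadjusted p = 0.0689). The 5 nucleotide sugar carriers of family SLC35 had a median of -0.04. The Golgi UDP-galactose carrier SLC35A2 had separate groups too, at 0.24 (SE 0.13). The 7 carriers of vitamins and heme had a median of -0.09, and the 3 members of family SLC66 a median of -0.11.

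**Figure D3:**
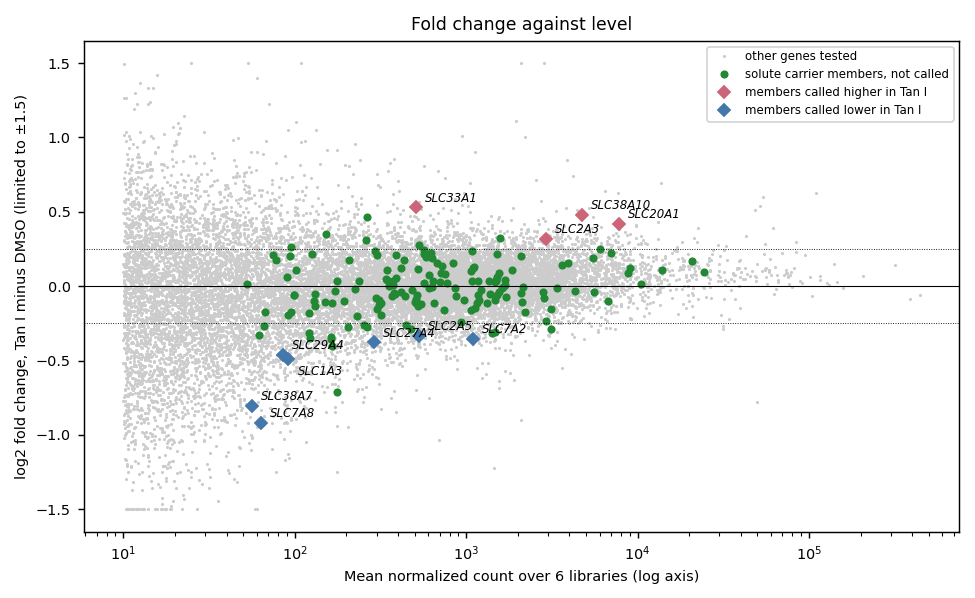
Log2 fold change (Tan I minus DMSO, limited to 1.5 either way, which 31 of the genes tested exceeded) against mean normalized count over the 6 libraries (log axis) for the other genes tested (light grey) and 166 members (green, with called members in red or blue and named), with dotted lines at 0.25 either way. SLC7A8 and SLC38A7, lowest among those named, lie at means below 100, and the 4 called higher lie above 500.

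As a group the members were centred near 0. The median log2 fold change was -0.02, against -0.0016 for all genes tested, with 76 members above 0 and 91 below, and 45.5% above 0 against 49.7% of all genes. Of the members 132 (79%) lay within 0.25 of 0, against 71.9% of genes tested. For 157 members the 95% confidence interval excluded a change beyond 1 on the log2 scale. All 4 members called higher and 3 of the 8 called lower were among the 131 with a mean of at least 200, where the lowest log2 fold change was -0.38. The log2 fold changes further below 0 belonged to members with lower counts. Just inside the mean of 50 lay SLC1A1, SLC38A7 and SLC12A7 (KCC4), with means of 52.7, 56.2 and 61.8. Just outside lay SLC26A5, SLC4A5 and SLC26A9, with 47.8, 42.3 and 41.5.

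Related genes that the symbol rule does not reach held no call. The list held 31 genes, such as the SLC16 chaperone BSG, the mitochondrial pyruvate carrier subunits MPC1 and MPC2 and the organic anion transporter SLCO4A1. All 31 were listed, 0 were called and 0 had a limma unadjusted p of at most 0.05. Of all genes tested 2.42% were called. For a list of 31 genes a count of 0 is near that share and is no result about these genes. The median log2 fold change was 0.05, and 23 lay above 0. Of the 31 tested SLC genes with a mean of 10 to 50, 0 were called higher and 2 lower, SLC26A7 and SLC17A7, named after their values were seen. The 2 calls were 6.45% of them, against 2.42% of all genes tested, 1.32% higher and 1.1% lower. For SLC26A7 and SLC17A7 the unadjusted p was 0.0442 and 0.0456 in edgeR, and 0.0797 and 0.0598 in DESeq2. The median log2 fold change of these 31 SLC genes was -0.20, against -0.0016 for all genes tested.

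Per length of the canonical transcript, the highest members were mitochondrial and amino acid carriers. The ADP/ATP carriers SLC25A5 and SLC25A6 had 14792 ± 3119.98 and 9168 ± 1282 normalized counts per kb in DMSO and 16885 ± 5001 and 10014 ± 2436 in Tan I (SD, n = 3 each). SLC3A2 followed with 4581 ± 512 and 5033 ± 978, and the mitochondrial phosphate carrier SLC25A3 with 3910.2 ± 362 and 4199 ± 658. These neighbours overlap within their spread, as do SLC1A5 at 3014 ± 1180.1 and SLC39A7 at 2652 ± 229 in DMSO. SLC25A5 and SLC25A6 share near-identical sequence with each other and with processed copies, so their levels are uncertain after removal of reads mapping to several places. The median member had 164 per kb in DMSO. None of these abundant carriers was called except SLC20A1.

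**Figure D4:**
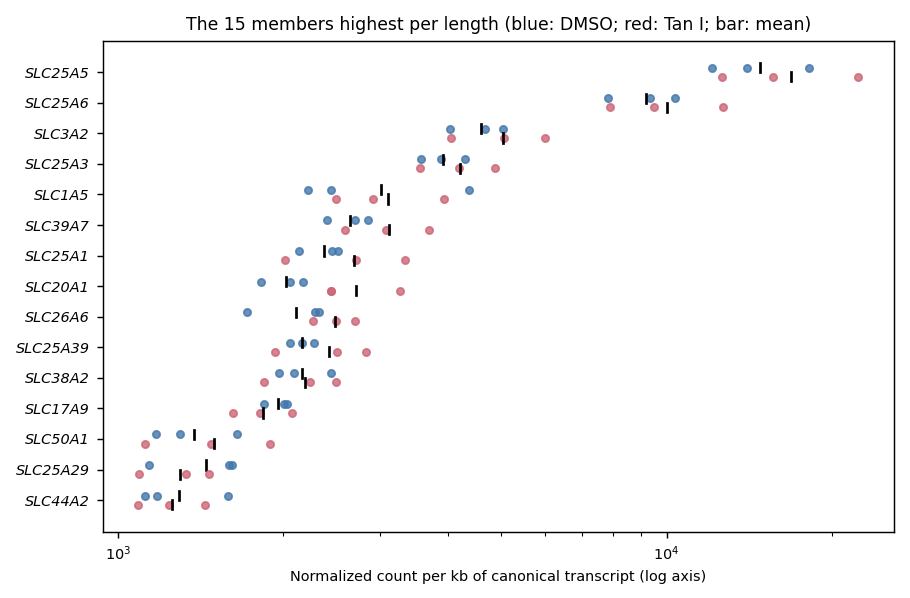
Normalized count per kb of canonical transcript (log axis) of the 15 members highest per length, with 3 points for the DMSO libraries (blue), 3 for the Tan I libraries (red) and a black bar at each mean. SLC25A5 leads in both groups with means of 14792 in DMSO and 16885 in Tan I, and the points of the 2 groups overlap for each gene shown but SLC20A1.

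Libraries of the same group differed for some members by more than the groups did. The ratio given here, of the highest to the lowest of all 6 libraries, also holds any difference between the groups. This ratio had a median of 1.49 over the members and 1.51 over all genes with a mean of at least 50. It was at least 2 for 17 members and at least 4 for 2, SLC16A4 (10.98) and the ergothioneine carrier SLC22A4 (4.95). SLC22A4 had 98.8, 33.7 and 69.5 normalized counts in DMSO and 132, 36.9 and 26.7 in Tan I. In both genes replicate 1 was the highest library of each group, and the low libraries were DMSO replicate 2 and Tan I replicates 2 and 3, the ones with positive scores on PC1.

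**Figure D5:**
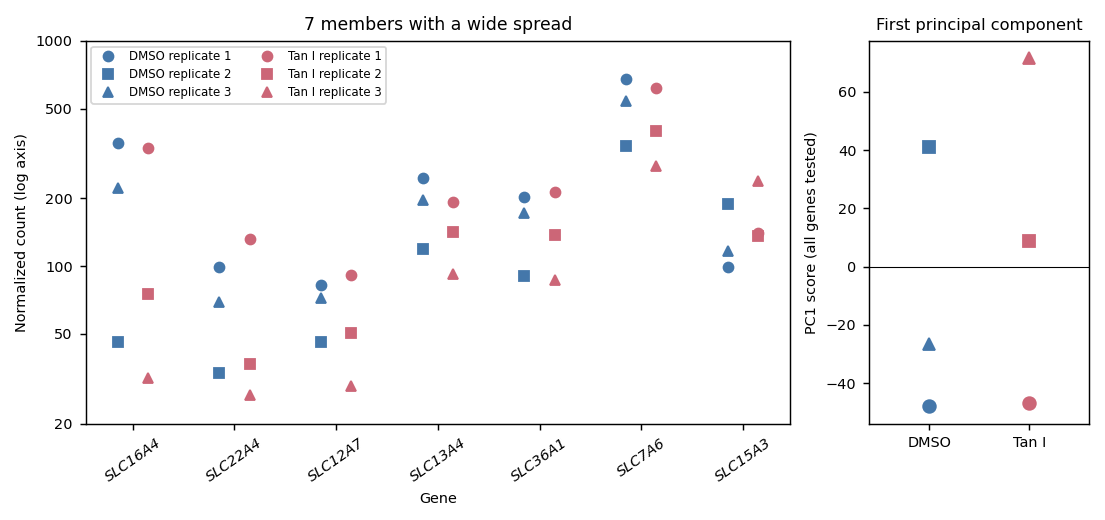
Left, normalized counts (log axis) of 7 members with high ratios between libraries, in DMSO (blue) and Tan I (red), with circles, squares and triangles for replicates 1, 2 and 3; right, the PC1 score of each library. SLC16A4 spans 32.01 to 352, and DMSO replicate 2 and Tan I replicate 3, at 41.11 and 71.61, are the highest scores of their groups.

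With the PC1 score as a covariate in limma, 22 members were called, 7 higher and 15 lower, against 8.86% of all genes tested, and all 12 calls were kept. In that fit 7 members had a Benjamini-Hochberg adjusted p of at most 0.05, against 1.15% of all genes (195). They included SLC38A10 (log2 fold change 0.43, adjusted p = 0.00274), SLC6A6 (0.35, adjusted p = 0.0202), SLC33A1 (0.50, adjusted p = 0.0254), SLC2A3 (0.37, adjusted p = 0.0351), SLC7A8 (-0.95, adjusted p = 0.0392) and SLC20A1 (0.44, adjusted p = 0.0455). SLC38A7 was at -0.81 with an adjusted p of 0.0764. SLC7A8 and SLC38A7 became members only through their DMSO level. Their values in this fit are therefore no independent support for a fall. The taurine carrier SLC6A6 had 5906, 4027 and 5195 normalized counts in DMSO and 7560.4, 6173 and 3949 in Tan I, so its groups overlapped and it was not called without the covariate. The component was computed from the same 6 libraries, so these adjusted values are not independent of them.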

How the data were processed

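RNA-seq libraries of NB4 cells, 3 with DMSO and 3 with Tan I, were grouped by their labels. The authors used STAR to align to GRCh38, kept reads with a single location, counted them by gene with featureCounts and tested with DESeq2; versions, annotation release and strand setting are not given in the sources used here. The authors deposited 1 table in which each library's signal is its read count divided by a size factor. The deposited log2 fold change, its standard error, the test score and both p-value columns are the authors' own comparison and were not used.

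Division by size factors assumes that most genes do not change. All values (100%) were whole reads within 0.001 reads of a multiple of 1 read's worth, and size factors of 0.750 to 1.28 were recovered. Members had at least 20 reads in every library, which limits the precision of the lowest ones.

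limma 3.58.1 in R 4.3.3 (with trend) was fitted on log2(normalized count + 1) to 16887 genes (mean of 10 or more), with treatment as the only term, tested on simulated data first. The alternatives used other pseudocounts, filters, scalings, covariates and left-out libraries, and edgeR 4.0.16 (TMM) and DESeq2 1.42.0 on recovered reads. Members, lists and alternatives were chosen with earlier results of these data known. Members were named if called, among the 5 largest rises or falls, the most abundant of a family of 4 or more, among the 10 most abundant, or next to the mean of 50; SLC6A6, SLC22A4 and the related genes given as examples were added for the results they illustrate. Values of 1 called member are not reported here. Gene positions and canonical transcripts are from GENCODE release 44. Exons of another gene on the opposite strand overlap 73 of the 167 members. Unless the counting used strand, which was not tested, their reads cannot be told apart from that gene's.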

Additional observations from a re-analysis of the deposited data

How the results depend on the processing

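The count of 12 called members was 22 with the first principal component as covariate, 7 with the replicate block, 7 among members with a mean of at least 200, and 0 when the fold threshold was 1 on the log2 scale. Over the 6 fits without a library it ran from 6 (without DMSO replicate 1) to 18 (without Tan I replicate 1), and was 7 without Tan I replicate 2. In the other alternatives it was 8 to 13. The members with an adjusted p of at most 0.05 were 7 with the component and 0 otherwise, also with each library left out. The median log2 fold change was -0.076 with the same total per library, where that of all genes was -0.06, and -0.02 to 0.00 (-0.02289 to 0.00466) without a library. The cause of these shifts was not tested. Over 17 settings SLC33A1 and SLC38A10 were called in each, as were SLC38A7 and SLC7A8, whose fall the mean of 50 favoured, so that this does not bear on their stability. DESeq2 and a mean of at least 50 lost SLC1A3, edgeR lost SLC1A3 and SLC2A3, and quantile normalization lost SLC20A1, SLC2A3, SLC2A5, SLC29A4 and SLC1A3. For the 12 called members 149 values stayed past the threshold, 55 did not and 0 turned direction.

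The deviations of libraries with the same replicate number correlated across genes at 0.751 for replicate 1, -0.0881 for replicate 2 and -0.451 for replicate 3. Of the libraries with the same number, only those of replicate 1 deviated together. DMSO replicate 2 and Tan I replicate 3 correlated at 0.758, the highest value of any such pair. The numbers were therefore not treated as a pairing. The replicate block reduced the calls to 7. Some members have 20 to 100 reads per library, and changes within their spread were not detectable at this depth.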
